A study of Homo sapiens with 6 samples.

Results

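The genes described here serve the secretory pathway of the endoplasmic reticulum (ER): protein entry, folding, and removal of failed products by ER-associated degradation (ERAD). They were chosen by gene symbol, and all 37 symbols on the list had a row in the authors' deposited table, which holds 34675 rows. Heat shock chaperones were not part of the list. RNA sequencing was done on U2932, a human lymphoma line long established in culture, of the diffuse large B cell type. In 3 samples the cells carried a short hairpin RNA (shRNA) against PRDM11, a PR domain family member, and in 3 samples a scrambled shRNA in the pLKO-puro vector. Cells of both groups were infected and kept in puromycin for 3 days, so the controls share the vector and the drug, and a single hairpin sequence stands for the knockdown. The deposited comparison names its groups condition A and condition B only. No header or label ties either to a hairpin, so differences run from condition B to condition A and none is called an effect of knockdown. PRDM11 itself read 268, 272 and 323 (normalised) across condition A and 565, 516 and 545 across condition B, 1.88-fold lower in condition A (adjusted p = 1.76e-08 in the authors' deposited table). The labels do not state whether the 3 samples of a group were grown apart. The p-values draw on the spread among these samples, not only that of the single gene, and that spread may be technical.

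Secreted and membrane proteins enter the ER through the Sec61 channel, lose their signal peptide to the signal peptidase complex, and fold with the help of lectin chaperones and disulfide isomerases. Proteins that fail to fold are drawn back into the cytosol by the ERAD machinery, built around the ubiquitin ligase encoded by SYVN1, and degraded. The sensors IRE1 (encoded by ERN1) and ATF6 watch the load of unfolded protein, and the factors they release bind short promoter motifs known as ER stress elements. B lineage cells enlarge this system when they turn to antibody secretion.

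The promoters of several of these genes carry such motifs, and the sequences below show where HERPUD1, the gene with the clearest difference, stands among them. Promoter windows of 300 bases (250 before and 50 after the start site) were taken from RefSeq on GRCh38.p14, and 32 of the 37 genes had one. Windows were not at hand for DERL1, DERL3, PDIA3, SEC24D and SPCS1. The motifs were searched on both strands. The ER stress element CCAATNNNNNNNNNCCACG was found in 4 of 32 genes (CALR, CANX, CRELD2 and PDIA6), and in 0.0916% of all 27305 genes with a promoter window (0.0769% of 35116 windows). The second form of the element, ATTGGNCCACG, was found in 3 of 32 genes (HERPUD1, SDF2L1 and, at 2 places, HYOU1), against 0.0696% of all genes (0.0541% of windows). The core of the unfolded protein response element, TGACGTGG, was found in 4 of 32 genes (HYOU1, SSR3, SSR4 and TXNDC5), against 0.927% of all genes (0.729% of windows). In HYOU1 it overlaps one of the copies of ATTGGNCCACG. The cyclic AMP response element TGACGTCA was found in 0 of 32 genes, against 2.25% of all genes (1.85% of windows). The short parts of the elements are common: CCACG was present in 25 of 32 genes and 42.1% of all genes (38.1% of windows), and CCAAT in 26 of 32 genes and 39.7% of all genes (34.6% of windows). A match is a description of the letters and not a bound site. The first line gives the 250 bases before the HERPUD1 start site (chr16:56931892-56932141, plus strand), where the match is centred 112 bases before the start. The other lines give each matched stretch with 5 bases on either side, 5′ to 3′ on the strand of the gene, with the fixed bases of the element in capitals.
HERPUD1: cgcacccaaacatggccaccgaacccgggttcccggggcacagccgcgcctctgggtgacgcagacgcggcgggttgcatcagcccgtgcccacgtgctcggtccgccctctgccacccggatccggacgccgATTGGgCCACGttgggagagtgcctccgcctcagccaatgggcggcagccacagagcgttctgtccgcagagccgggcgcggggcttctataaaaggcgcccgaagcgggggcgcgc
HYOU1 (chr11:119057269-119057395, minus strand): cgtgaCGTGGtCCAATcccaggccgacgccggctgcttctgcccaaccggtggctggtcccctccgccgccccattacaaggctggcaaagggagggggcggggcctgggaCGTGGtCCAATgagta
SDF2L1 (chr22:21642109-21642129, plus strand): ggaagCGTGGaCCAATcaaaa
CALR (chr19:12938379-12938407, plus strand): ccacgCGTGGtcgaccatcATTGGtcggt
CRELD2 (chr22:49918549-49918577, plus strand): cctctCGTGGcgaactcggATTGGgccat
CANX (chr5:179698773-179698801, plus strand): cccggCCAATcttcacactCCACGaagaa
PDIA6 (chr2:10812848-10812876, minus strand): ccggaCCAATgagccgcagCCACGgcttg
Of the 7 genes with either form of the ER stress element, HERPUD1 alone passed the test. Over all genes with a mean of at least 50, 6.04% passed, so 1 call among 7 genes says little about the element. Of the 7 genes, 3 had a log2 ratio above 0 and 4 below 0. Their median log2 ratio was -0.05, beside -0.04 for the 25 genes with a window and neither form.

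**Figure D1:**
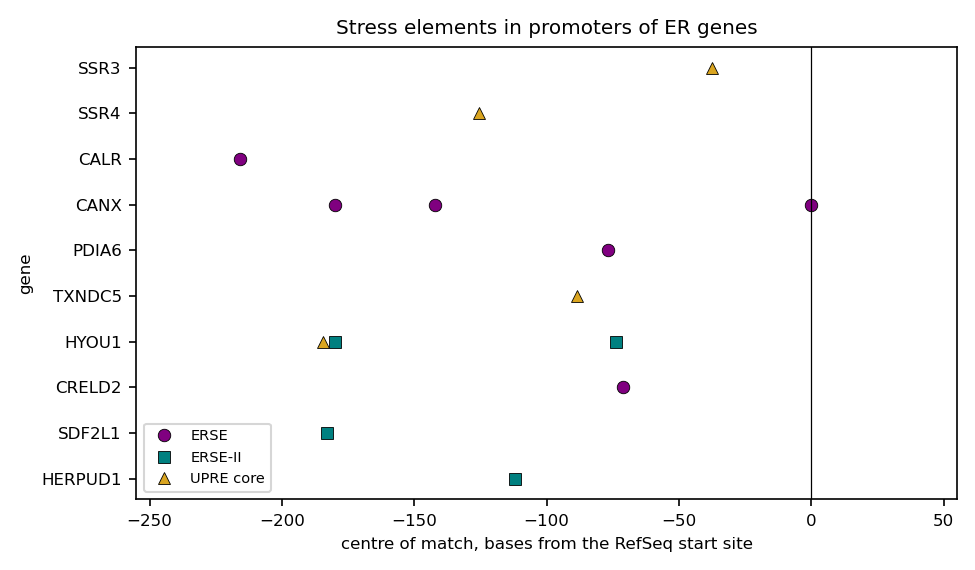
Positions of the ER stress element (ERSE), its second form (ERSE-II) and the unfolded protein response element core (UPRE core) in the 10 genes with a match, by the distance in bases of the match's centre from the RefSeq start site (vertical line). The HERPUD1 match is centred 112 bases before the start site; the 3 marks of CANX are 1 stretch measured from 3 start sites.

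HERPUD1 was higher in condition A by 1.79-fold, and it was the only one of the 37 genes that passed the test used for the calls, an adjusted p under 0.05 in the authors' deposited table. The count of members called, 1 higher and 0 lower, is 2.70% of the 37. Called genes made up 2.54% of all 34675 rows of the authors' deposited table (0.966% higher and 1.57% lower), and of the 13565 genes with a mean of at least 50 normalised reads 6.04% were. Unadjusted p was under 0.05 for 5 of the 37 in the authors' deposited table, namely HERPUD1 and ATF6 higher in condition A and MZB1, PDIA4 and FKBP11 lower, beside 20.8% of the 13565 genes. All 37 genes passed the minimum of 50, and their means ran from 442 (SPCS2) to 58545 (CALR). By sign alone, 13 of the 37 log2 ratios were above 0 and 24 below 0. Their median was -0.04 (quartiles -0.16 and 0.06), beside -0.00 (quartiles -0.17 and 0.15) over the 13565 genes. Differences past 1.2-fold were seen in 4 of the 37 and in 29.3% of the 13565 genes. Members of the list held 1.04% of all normalised reads summed over condition A and 1.06% of those of condition B.

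**Figure D2:**
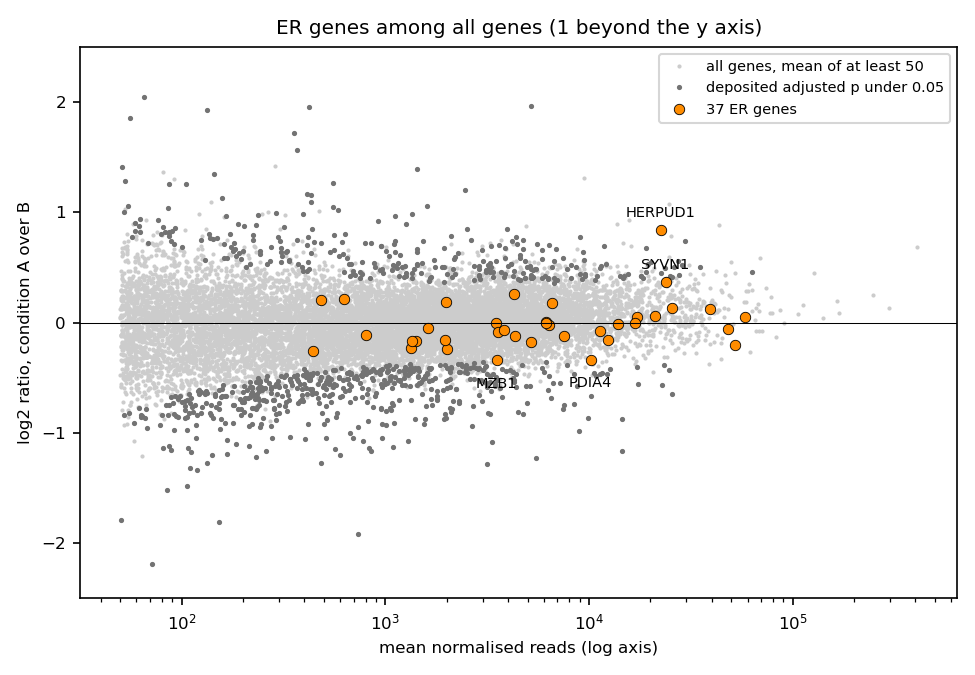
Log2 ratio of condition A over condition B against the mean of normalised reads (log axis) for genes with a mean of at least 50 (light grey), those with an adjusted p under 0.05 in the authors' deposited table (dark grey) and the 37 ER genes (orange); 1 gene lies beyond the axis. HERPUD1, at a mean of 22543 and a log2 ratio of 0.84, is the only orange point past the threshold.

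The reads of the single libraries could be recovered from the 15 digits with which the condition means are printed. Within the search limits given below, recovery gave 1 solution for 34 of the 37 genes. HERPUD1, HYOU1 and SEC11C have 2, 2 and 3 possible sets of reads in condition A within the same limits. Library numbers within a condition follow the size factors from high to low and correspond to no replicate of the labels. The recovered reads were tested with limma as an alternative to the deposited p-values. It called 4 of the 37 genes, ATF6 and HERPUD1 higher and MZB1 and PDIA4 lower, beside 8.74% of 17607 genes (3.74% higher and 5.0% lower). On simulated reads for these 17607 genes, limma called 10% of 50 genes changed by 1.2-fold, 72% at 1.5-fold and 100% at 2-fold. The simulation gave all genes the same spread beyond counting noise and changed far fewer genes than limma called in the data. It held no pattern shared by libraries, so these shares may not hold for the real reads. In the data, the 95% interval of the difference by limma lay within 1.5-fold in either direction for 33 of the 37 genes and within 1.2-fold for 10. Of the 34 genes with 1 solution, 9 had no overlap between the libraries of both conditions (3 with condition A above and 6 below), or 26.5%, beside 34.9% of 13457 genes (16.8% above and 18.0% below).

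**Figure D3:**
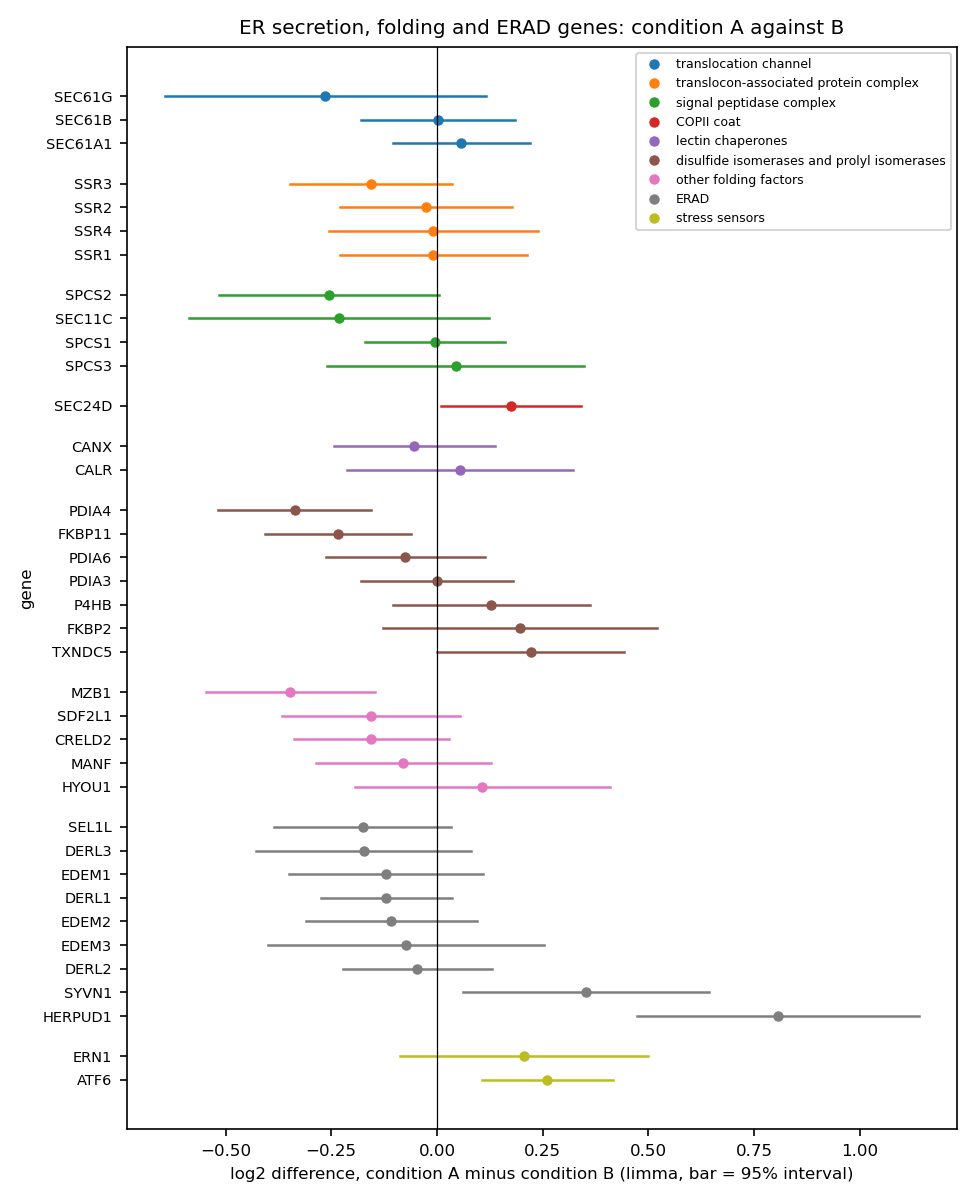
Log2 difference of condition A minus condition B from limma for each of the 37 genes, grouped and coloured by role, with bars for the 95% interval. HERPUD1 (0.81) stands to the right of all others, and the interval lies wholly below 0 only for PDIA4, FKBP11 and MZB1.

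Genes of protein entry into the ER did not pass the test in either direction. Of the 3 subunits of the translocation channel, SEC61A1, the pore, had a log2 ratio of 0.06, SEC61B 0.00 and SEC61G -0.23. SEC61A1 read 21392, 21543 and 21707 normalised reads across condition A and 21094, 20727 and 20304 across condition B. All 3 libraries of condition A were thus above those of condition B, by a margin that limma did not call (adjusted p = 0.639). The translocon-associated protein complex, which binds the channel and helps certain signal sequences to enter, had 4 of 4 members below 0, from -0.15 (SSR3) to -0.01 (SSR1 and SSR4).

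The signal peptidase complex, which cleaves signal peptides, had 1 member above 0 and 3 below, and none passed. SPCS2, an accessory subunit, had 442, 400 and 366 normalised reads across condition A and 419, 505 and 521 across condition B, so 1 library of condition A lay above 1 of condition B. Its log2 difference by limma was -0.26 ± 0.12 (SE, adjusted p = 0.191). SPCS2 reads may be shared with the pseudogene SPCS2P4, whose mean was 448 normalised reads. SEC11C, a catalytic subunit, had a log2 ratio of -0.20 (adjusted p = 0.955 in the authors' deposited table). Its libraries in condition B held 52752, 57695 and 57431 normalised reads, and its mean in condition A was 48632. On its widest set of reads the log2 ratio was -0.02 without library 3 of condition A and -0.36 without library 1 of condition A. SPCS3 (log2 ratio 0.05) changed sign, to -0.06 without library 1 of condition A and to -0.04 without library 1 of condition B. SPCS1 (log2 ratio -0.00) shares 58.1% of its exonic bases with GLT8D1 and NEK4 on the opposite strand, and the strand setting of the counting is not given in the sources used here.

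SEC24D, a cargo adaptor of the COPII coat that buds vesicles from the ER, had 6886, 6802 and 7316 normalised reads across condition A and 5959, 6426 and 6212 across condition B. The groups did not overlap, with condition A the higher. The log2 difference was 0.18 ± 0.07 (SE) by limma, with an adjusted p of 0.160, and so did not pass.

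The lectin chaperones, which hold newly made glycoproteins until they fold, had log2 ratios near 0. CALR, encoding calreticulin, had 55222, 57254 and 66204 normalised reads across condition A and 67341, 52942 and 52308 across condition B. The groups overlapped fully, and the log2 ratio of 0.05 changed sign without library 3 of condition A (-0.03) or library 2 or 3 of condition B (-0.01 each). CANX, encoding calnexin, had a log2 ratio of -0.05 (95% interval -0.24 to 0.14 by limma).

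Among the 7 disulfide and prolyl isomerases, which form disulfide bonds or turn proline bonds, 3 ratios were above 0 and 4 below. PDIA4, a disulfide isomerase (coding interval chr7:148700889-148725500 on hg19), had 8621, 8712 and 9710 normalised reads across condition A and 11980, 11077 and 11070 across condition B. Every library of condition A was below every library of condition B. The mean was 1.26-fold lower in condition A, and the adjusted p, 0.0717 in the authors' deposited table, misses the threshold. With the deposited p adjusted over the 17613 genes with a mean of at least 10 the value was 0.0368, and 6.68% of those genes passed; over the 12157 genes with a mean of at least 100 it was 0.0294, and 8.96% passed. By limma the log2 difference was -0.34 ± 0.08 (SE, adjusted p = 0.0333).
FKBP11, a prolyl isomerase prominent in secretory cells, had 1767, 1831 and 1949 normalised reads across condition A and 2272, 2123 and 2130 across condition B. Its groups did not overlap either. The log2 difference was -0.23 ± 0.08 (SE, limma adjusted p = 0.0884), and of the 6 fits that left out 1 library, only the one without library 3 of condition A called FKBP11 (adjusted p = 0.0469). TXNDC5, a thioredoxin domain isomerase, had 631, 680 and 707 normalised reads across condition A and 642, 533 and 559 across condition B, with overlap in 1 library of each condition. Its log2 difference was 0.22 ± 0.10 (SE, limma adjusted p = 0.182), and 60.6% of its exonic bases lie in the readthrough gene BLOC1S5-TXNDC5 on the same strand. The other 4 had log2 ratios of 0.18 (FKBP2), 0.13 (P4HB), -0.00 (PDIA3) and -0.07 (PDIA6). PDIA3 has a processed copy, PDIA3P1, with a mean of 5131 normalised reads in the authors' deposited table, so PDIA3 counts may be split. Part of PDIA6 (25.2% of exonic bases) and of PDIA3 (18.9%) is overlapped by genes of the other strand.

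Of the 5 other folding factors, 4 were below 0. MZB1, a partner of the chaperone GRP94 in B cells that aids immunoglobulin assembly (coding interval chr5:138723457-138725545), had 2842, 3022 and 3470 normalised reads across condition A and 4081, 3988 and 3764 across condition B. No library of condition A reached the lowest of condition B. Its mean was 1.27-fold lower in condition A, and the authors' deposited table gives 0.0595 as its adjusted p. Adjusted over the 17613 genes, the p was 0.0305. By limma the log2 difference was -0.35 ± 0.09 (SE, adjusted p = 0.0428).
The size of both differences stayed similar when 1 library was left out, with log2 ratios from -0.43 to -0.28 for MZB1 and from -0.39 to -0.30 for PDIA4. Both limma calls were lost when any of library 1 or 2 of condition A or library 1, 2 or 3 of condition B was left out, with adjusted p up to 0.162 for MZB1 and 0.149 for PDIA4. Both held without library 3 of condition A (adjusted p = 0.00608 and 0.00745). They were also lost under upper quartile scaling (adjusted p = 0.0869 and 0.0720).
CRELD2 and SDF2L1, which are both induced by ER stress, each had a log2 ratio of -0.16, and their libraries did not overlap. CRELD2 had 1851, 1867 and 1818 normalised reads across condition A and 2244, 1911 and 2021 across condition B. SDF2L1 had 1336, 1360 and 1304 across condition A and 1694, 1409 and 1374 across condition B. Neither passed (limma adjusted p = 0.259 and 0.317). MANF, a secreted stress protein, had a log2 ratio of -0.09 and HYOU1, an ER chaperone of the HSP110 family, 0.13.

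ERAD held the single call. HERPUD1, a membrane protein that joins the SYVN1 ubiquitin ligase complex (coding interval chr16:56966157-56977302), had 16333, 16122 and 16082 normalised reads in condition B, a mean of 16179 ± 135 (SD, n = 3). In condition A its mean was 28908, made up of either 24469, 24563 and 37692 or 26352, 28767 and 31606 normalised reads. Under both sets every library of condition A was above every library of condition B. The log2 ratio was 0.84, and the authors' deposited table gives 7.79e-10 as its adjusted p. By limma on the wider set of reads the difference was 0.81 ± 0.15 (SE, adjusted p = 0.0131), and on the narrower set 0.83 ± 0.08 (SE, adjusted p = 0.00067). On the wider set the limma call was lost without library 2 of condition B (adjusted p = 0.0665) or library 3 of condition B (adjusted p = 0.0558), with the log2 difference at 0.80 in both. Without library 3 of condition A the difference was 0.60 (adjusted p = 0.000495). These fits were run on the wider set only. A standard error of the log2 ratio, worked back from the deposited unadjusted p, was 0.12 for HERPUD1 and 0.22 for SYVN1. Which set of HERPUD1 reads is the real one was not tested. No exonic base of HERPUD1 is shared with another gene in GENCODE 29.
SYVN1, the ligase itself, had 22510, 25404 and 32423 normalised reads across condition A and 22819, 20163 and 19350 across condition B. One library of each condition overlapped, and the condition A libraries were spread over a wide range. The log2 ratio was 0.37, and the authors' deposited table gives 0.703 as its adjusted p. The difference was 0.35 ± 0.13 (SE, adjusted p = 0.118) by limma, which called SYVN1 when library 1 of condition A was left out (log2 ratio 0.48, adjusted p = 0.0348). Without library 3 of condition A the log2 ratio was 0.21. About 10.1% of its exonic bases are shared with FAU, MIR6751 and MRPL49.
The other 7 ERAD genes, all below 0, did not pass. SEL1L, the adaptor of the ligase, had a log2 ratio of -0.18. The derlins, which form part of the exit channel, ran from -0.16 (DERL3) through -0.12 (DERL1) to -0.04 (DERL2), and 77.0% of the exonic bases of DERL3 lie opposite SMARCB1. The DERL1 libraries did not overlap, at 4202, 4060 and 4249 normalised reads across condition A and 4615, 4487 and 4488 across condition B. The mannosidase-like EDEM proteins, which mark glycoproteins for disposal, ran from -0.12 (EDEM1) through -0.11 (EDEM2) to -0.06 (EDEM3).

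Both stress sensors had ratios above 0. ATF6, a membrane-bound transcription factor cut free under ER stress (coding interval chr1:161736151-161928441), had 4561, 4673 and 4798 normalised reads across condition A and 3857, 3969 and 3880 across condition B. The groups did not overlap and the spread within each was small (SD 119 and 59.2, n = 3). The log2 ratio was 0.26, and the authors' deposited table gives 0.374 as its adjusted p. A standard error worked back from the unadjusted p of ATF6 there was 0.12. By limma the log2 difference was 0.26 ± 0.07 (SE, adjusted p = 0.0471); leaving out 1 library kept the log2 ratio between 0.24 and 0.28 while the adjusted p ran from 0.0492 to 0.194, and the call held only without library 1 of condition A. ERN1, encoding the kinase and nuclease IRE1, had 482, 478 and 590 normalised reads across condition A and 375, 480 and 492 across condition B. Its groups overlapped, and the log2 difference was 0.21 ± 0.13 (SE, limma adjusted p = 0.341). The ERN1 log2 ratio, 0.20, was 0.10 without library 3 of condition A and 0.09 without library 1 of condition B.

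**Figure D4:**
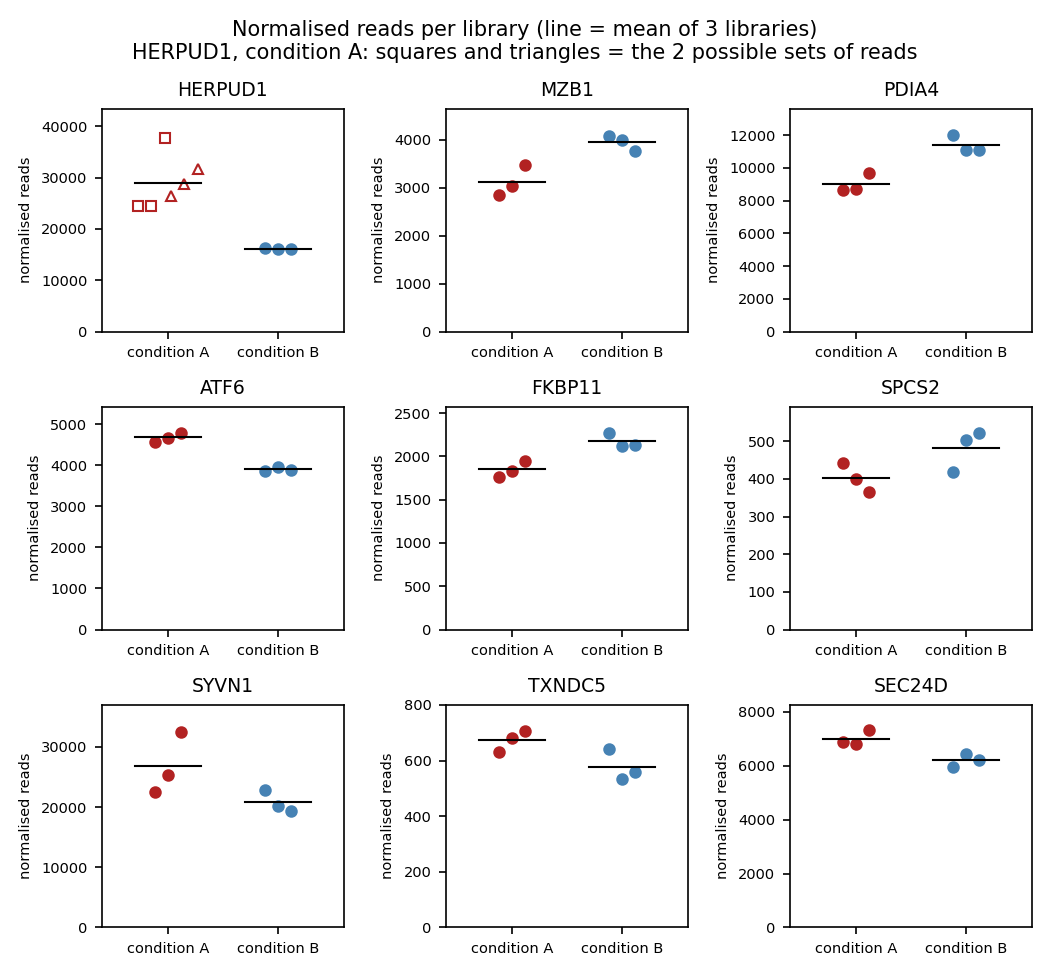
Normalised reads of each recovered library for the called gene and the 8 genes with the next smallest p, with a line at the mean of the 3 libraries and linear axes from 0. For HERPUD1 both possible sets of condition A are drawn, and both lie above 16333, the highest library of condition B.

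Set per kb of coding length, the level of the genes spanned a wide range. SEC11C was highest with a mean of 90792 normalised reads per kb over both conditions, followed by CALR with 45454 and SPCS3 with 31968. ERN1 was lowest with 156, and then came EDEM2 with 430 and TXNDC5 with 482. On the length of the longest GENCODE transcript CALR came first, SEC11C second and SPCS3 twelfth, and EDEM2 rose from place 36 to 31 of 37, with SPCS2 at 36. The places of SPCS3 and EDEM2 thus depend on the length used, whereas ERN1 was last on both. HERPUD1, seventh on both lengths, had 22288 normalised reads per kb of coding length in condition A and 12474 in condition B.

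GC content is the share of G and C in the longest transcript. Against its own condition's mean, library 3 of condition A rose with GC content, as did library 1 of condition B. Library 1 of condition A deviated about as far in the other direction. For the 10 genes of lowest GC, its median log2 deviation was 0.13, beside -0.14 in library 3 of condition A. For the 34 genes with recovered reads, the log2 deviation from the condition mean correlated with GC with r = 0.75 in library 3 of condition A and r = 0.75 in library 1 of condition B. It was r = -0.79 in library 1 and -0.44 in library 2 of condition A, and -0.67 and -0.74 in libraries 2 and 3 of condition B. Over 13169 genes the values for the first pair were 0.56 and 0.56. The deviations of a condition's 3 libraries share one mean, so these values are descriptions without a test. For the 10 genes of highest GC (from 53.9% to 65.5%), library 1 of condition B was above its condition's mean in 10 and library 3 of condition A in 8. For the 10 genes of lowest GC (from 35.8% to 41.6%), these libraries were below the mean in 10 and 9. Deviations of the pair had the same sign in 26 of 34 genes (r = 0.62) and in 9514 of 13457 genes overall (r = 0.52). SYVN1 (GC 56.3%) and MZB1 (58.3%) lie toward the high end, HERPUD1 at 47.9% and ATF6 at 41.3%. The part of this pattern in the results above was not tested.
With both libraries left out, an alternative chosen after seeing the data, limma compared 2 libraries with 2 and called 12 of the 37 genes, beside 26.0% of 17631 genes. The calls were ATF6, FKBP2, HERPUD1, SYVN1 and TXNDC5 higher in condition A and DERL3, EDEM1, FKBP11, MZB1, PDIA4, SEL1L and SPCS2 lower. Removing libraries that lie at an end of their condition's range narrows the spread by construction. HERPUD1 was then 0.61 ± 0.05 (SE) higher on the log2 scale, MZB1 stood at -0.40 ± 0.06 (SE) and PDIA4 at -0.35 ± 0.05 (SE), with adjusted p of 3.61e-07, 0.000116 and 0.000111 by limma. ERN1 moved to -0.02.

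**Figure D5:**
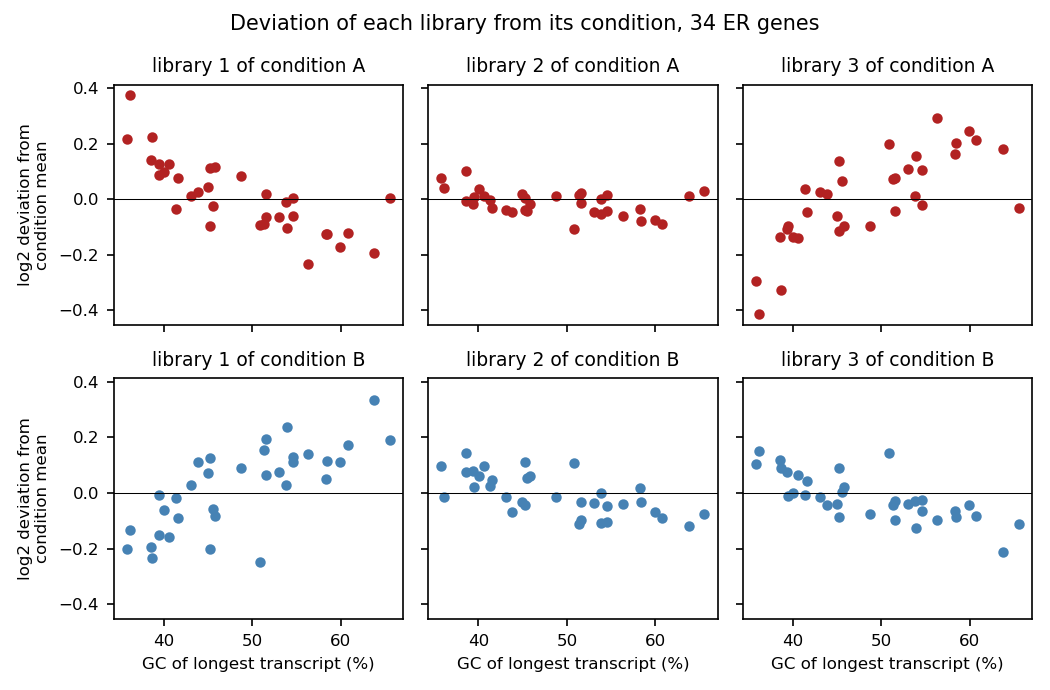
Log2 deviation of each recovered library from its condition's mean against the GC content of the longest transcript, for the 34 genes with 1 solution (condition A in red, condition B in blue). Library 3 of condition A and library 1 of condition B slope upward (r = 0.75 in each), and the other 4 slope downward.

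The wider pathway was read from 8 lists of other ER genes, of which 101 of 105 had a row. The calls in the authors' deposited table included SRP14, SEL1L3 and PPP1R15A as higher and UGGT2 and ERO1L as lower, and the median log2 ratio was 0.01. The calls, and the lists without any, stand beside 6.04% called over the 13565 genes with a mean of at least 50. PPP1R15A, which restores translation after stress by recruiting a phosphatase to eIF2 alpha, had 5092, 5220 and 6258 normalised reads across condition A and 3772, 3086 and 3219 across condition B (log2 ratio 0.72, adjusted p = 0.000147 in the authors' deposited table). ERO1L, the oxidase that recharges disulfide isomerases, had a log2 ratio of -0.41 and UGGT2, of the glycoprotein folding sensor family, -0.71, while SRP14 of the signal recognition particle had 0.44 and SEL1L3 0.43. The lists for the oligosaccharyltransferase (11 genes), the other translocon and signal peptidase genes (6) and the other COPII genes (13) had 0 calls in the authors' deposited table. By limma 0, 0 and 2 of them (PREB and SEC31B) were called, beside 8.74% of 17607 genes.
Of the regulators of the secretory programme, XBP1, the factor made by IRE1 splicing, had 10489, 10563 and 9852 normalised reads across condition A and 10163, 10887 and 10363 across condition B, and the groups overlapped (log2 ratio -0.02). Reads summed per gene do not tell spliced from unspliced XBP1 RNA, so splicing was not measured. PRDM1, encoding the plasma cell factor BLIMP1, had 742, 766 and 907 across condition A and 502, 440 and 439 across condition B (log2 ratio 0.81, adjusted p = 1.12e-06 in the authors' deposited table). IRF4, which acts with it, had a log2 ratio of 0.41 (adjusted p = 0.0276 in the authors' deposited table). PRDM1 and IRF4 belong to a list of 8 plasma cell markers and were its only calls by the deposited adjusted p. Of the 8, 6 log2 ratios were above 0 and 2 below, from -0.51 to 0.81. The share called was 6.04% over the 13565 genes with a mean of at least 50.
All 8 B cell markers had means of at least 1792 normalised reads. The 4 T cell markers found of 6 listed had means of at most 45.1, with summed levels of 59.1 in condition A and 55.6 in condition B. Of the myeloid markers 1 of 5 and of the epithelial and fibroblast markers 2 of 7 passed a mean of 50, with summed levels of 985 and 1365 in condition A and 1189 and 1342 in condition B.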

How the data were processed

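Per the labels, RNA from 6 U2932 samples (3 per group) was purified on columns with DNase digestion. The authors' tools are given as STAR, HTSeq 0.5.4p5 and DESeq 1.14.0 on hg19 in the submitters' processing notes, with no roles. Per the file headers, the means are a signal: reads scaled by library size factors. The deposited ratio sets condition B over condition A, and a deposited log2 column holds its logarithm, used here with the sign turned. The deposited p-value was adjusted by the authors over all rows. The score in the deposited hg19 track was not used, and its coding intervals gave lengths and coordinates.

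The design foresaw counts per sample; the files hold condition means, so calls used the deposited adjusted p at 0.05. Reads were recovered from the printed means, 34567 of 34675 rows in condition A (85.7% of the summed mean) and 34664 in condition B (96.4%), with size factors of 1.21, 1.03 and 0.768, and 1.09, 1.05 and 0.951. Above a mean of 10000, only libraries at 0.7 to 1.4 times the condition mean were searched. In simulation, condition A gave back 89.3% of 912 such genes and condition B 99.0% of 839, with 0 wrong. The simulated libraries spread little around their mean, so few could fall outside these limits, and the simulation hardly tests them. Among recovered genes of lower mean, searched without these limits, 98.9% of 2960 in condition A lay inside them. In condition B 100% of 2976 did. Recovered reads per library ran from 29399481 to 44980170. Where several sets of reads were possible, the widest was tested. limma 3.58.1 (R 4.3.3) was run on log2(normalised reads + 0.5) for genes with a mean of at least 10, with Benjamini-Hochberg adjustment, and was tested on simulated data. In limma the variance of each gene was drawn toward a trend over all tested genes. The pseudocount slightly understates changes of low genes. Exon overlaps and GC come from GENCODE 29.

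Members and lists were chosen with earlier results of these data known. Named in full are the called gene, the 8 with the next smallest p and the 3 highest and lowest per kb. Some results of the pathway lists are not reported here.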

Additional observations from a re-analysis of the deposited data

How the results depend on the processing

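The count of the 37 genes called higher in condition A, 1 by the deposited adjusted p, was 2 with limma, 2 with upper quartile scaling, 2 with a pseudocount of 5, 2 with the narrowest sets of reads, 5 with library 3 of condition A and library 1 of condition B left out, and 0 to 3 over the 6 fits that left out 1 library. The count called lower, 0, was 2 with the deposited p adjusted over means of at least 10 or of at least 100, 2 with limma, 2 without a filter on low means, 2 with the pseudocount of 5, 2 with the narrowest sets, 7 with both libraries left out, and 0 to 3 over the fits that left out 1. It stayed 0 under upper quartile scaling, which moved the median over genes at or above a mean of 50 to 0.06. The median log2 ratio of the 37, -0.04, ran from -0.078 to -0.03 when 1 library was left out. CALR changed sign without library 3 of condition A (-0.033), library 2 of condition B (-0.0064) or library 3 of condition B (-0.014). SPCS3 did so without library 1 of condition A (-0.060) or of condition B (-0.042), and ERN1 with both libraries left out (-0.018). The narrowest sets and the fit without both libraries were chosen after seeing the data. All fits that left out libraries used the widest sets of reads, also for HERPUD1. No paired analysis was possible because the recovered libraries carry no replicate number of the labels. Among the 37 genes the lowest mean was that of SPCS2, at 442 normalised reads.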
